A study of Mus musculus with 15 samples.

Results

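The genes described here are 10 that cells switch on within minutes of a growth signal or a physical stress: Fos, Fosb, Jun, Junb, Egr1, Ier2, Dusp1 and Atf3, and the heat shock genes Hspa1a and Hspa1b. They were chosen by gene symbol, and every probe set that the array annotation gave to 1 of these symbols was kept, which was 13 of 45101 probe sets and 10 of 18194 named genes. Jun was read by 2 probe sets, Hspa1b by 3 and each other gene by 1. The samples were 15 single-array samples of LSK cells, the bone-marrow fraction without lineage markers that carries Sca1 and Kit and holds blood stem and early progenitor cells, from C57BL6 mice. Cells of every genotype, wild type included, received the retrovirus MSCV-Cre-IRES-GFP, were sorted for GFP and were cultured with mFlt3L, mTpo and mSCF, so all groups share transduction, sorting and culture. The genotypes at Apc, a brake on Wnt signalling, were wt/wt (6 arrays), and 15lox/15lox, 15lox/1572T and 15lox/1638N (3 arrays each), where 15lox is a floxed allele and 1572T and 1638N are hypomorphic alleles; the plots mark these groups WT, KO, T1572 and N1638. The study asked what Wnt signals do in blood-forming cells, and the question for these 10 genes is whether their levels followed the genotype or differed from array to array within a genotype.

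Immediate early genes are transcribed from factors already present in the cell, such as serum response factor and CREB, so their RNA rises without new protein synthesis and decays fast. Fos and Jun family proteins pair to form the AP-1 transcription factor, Egr1 is a zinc finger transcription factor, and Dusp1 is a phosphatase that switches off the MAP kinases that induce the others. Hspa1a and Hspa1b encode the inducible Hsp70 chaperone and are driven by heat shock factor 1 when proteins unfold. In blood-forming tissue these genes are known to respond to dissociation, sorting, cold and cytokines, and Fos, Jun and Egr1 are also expressed in resting stem cells.

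The upstream sequences show letters that these genes share and how alike the Hsp70 pair is. RefSeq promoters (GRCm38.p6) were matched by symbol for 8 of the 10 genes, all but Egr1 and Ier2. The 250 bases before the start of Hspa1a and of Hspa1b were equal at 247 positions (98.8%), and both hold the heat shock element core GAANNTTC, in capitals, 104 to 97 bases before the start. These upstream bases are at chr17:34972157-34972406 for Hspa1a and at chr17:34959239-34959488 for Hspa1b, both on the minus strand.
Hspa1a: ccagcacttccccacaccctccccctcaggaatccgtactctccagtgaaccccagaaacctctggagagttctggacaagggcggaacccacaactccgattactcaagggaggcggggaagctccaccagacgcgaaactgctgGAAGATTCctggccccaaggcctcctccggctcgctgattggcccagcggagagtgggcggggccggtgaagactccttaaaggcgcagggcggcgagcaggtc
Hspa1b: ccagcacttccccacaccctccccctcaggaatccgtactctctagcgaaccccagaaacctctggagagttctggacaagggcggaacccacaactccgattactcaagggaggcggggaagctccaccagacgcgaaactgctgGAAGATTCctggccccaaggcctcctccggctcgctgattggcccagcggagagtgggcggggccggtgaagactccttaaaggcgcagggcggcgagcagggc

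The core GAANNTTC, a pair of inverted heat shock factor units that reads the same on both strands, was in 3 of the 8 promoters (Jun, Hspa1a and Hspa1b) and in 6.69% of 32851 promoters of the same length. TGACG, the core of the cyclic AMP response element bound by CREB and ATF proteins, was in 5 of the 8 (Fos, Fosb, Junb, Dusp1 and Atf3) and in 17.8% of all promoters, counting both strands. Dusp1 alone of the 8 held the full element TGACGTCA, which contains the core on both strands and was in 1.55% of all promoters. The windows around the TGACG core nearest the start are shown because they are what these 5 genes share, with the site in capitals. They are at chr12:85473804-85473848 (plus strand) for Fos, chr7:19310081-19310125 (minus) for Fosb, chr8:84978830-84978874 (minus) for Junb, chr17:26508588-26508632 (minus) for Dusp1 and chr1:191183334-191183360 (minus) for Atf3, whose site reads CGTCA, the core on the opposite strand.
Fos: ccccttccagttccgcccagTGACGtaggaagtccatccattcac
Fosb: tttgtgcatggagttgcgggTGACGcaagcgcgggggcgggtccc
Junb: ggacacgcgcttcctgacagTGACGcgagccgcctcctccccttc
Dusp1: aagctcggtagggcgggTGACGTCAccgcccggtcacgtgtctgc
Atf3: ggaagctattaatagcattaCGTCAgc

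Other letters were searched on both strands in these 8 windows. The Tcf/Lef site CTTTGAT, through which Wnt signals act on DNA, was in none of the 8 (3.21% of all promoters). The AP-1 site TGANTCA was in none (6.75%), and the CArG box of serum response factor was in none (1.47%). The Egr site GCGNGGGCG was in Fosb (4.7%), the TATA box TATAAA in Fos (12.4%), and CCAAT in Jun, Junb, Hspa1a and Hspa1b (33.8%). A match describes these letters in this window only, and sites farther upstream were not searched.

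Levels are on the log2 scale, with array medians of 6.65 to 6.84, and their precision is limited by the number of arrays. Wild-type arrays 1 to 3 stand apart: at 96.7% of probe sets their mean lay within 0.05 of that of wild-type arrays 4 to 6, and at 18.2% all 3 values were equal, as for Jun probe set 1448694_at, at 9.41 on each. Comparisons therefore use wild-type arrays 4 to 6, and the other 3 are given as values. The labels name no batch, no handling time and no animal behind a replicate, so a p-value here reflects the spread of these samples alone, which may be technical. Wnt target genes checked the labels of 15lox/15lox and 15lox/1638N. Axin2, a feedback inhibitor induced by Wnt signalling, read 7.26 to 7.57 in wild type, 11.94 to 12.29 in 15lox/15lox, 11.10 to 11.51 in 15lox/1638N and 7.69 to 9.32 in 15lox/1572T. It rose 27.2-fold in 15lox/15lox (limma, adjusted p = 1.9e-05) and 14.5-fold in 15lox/1638N (adjusted p = 2.3e-04), and Lef1 and Nkd1 rose in both. None of the 3 passed the test in 15lox/1572T, so they could not check that label. The 6 measured LSK genes had mean levels of 11.42 to 12.02 over the 12 arrays and none passed in any comparison. By Xist, 0 of 3 wild-type arrays 4 to 6 were of the female type, while 15lox/15lox held 2, 15lox/1638N 1 and 15lox/1572T 1.

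None of the 13 probe sets passed an adjusted p under 0.05 against wild type in any genotype, between any pair of mutant genotypes, or in the F test over the 4 genotypes. Over all probe sets the limma test called 1.49% in 15lox/15lox, 1.38% in 15lox/1638N and 0.0288% in 15lox/1572T against wild type. Between mutant genotypes it called 0.186% (15lox/15lox against 15lox/1638N), 1.00% (15lox/15lox against 15lox/1572T) and 0.171% (15lox/1638N against 15lox/1572T), and the F test called 1.37%. At an unadjusted p under 0.05 the probe sets of these genes numbered 0, 3 and 3 of 13 in 15lox/15lox, 15lox/1638N and 15lox/1572T, where all probe sets gave 10.2%, 16.0% and 6.84%. Their groups did not overlap with wild type for 1, 4 and 3 of 13, where all probe sets gave 17.4%, 26.5% and 12.6%. Between mutant genotypes, in the order above, 3, 3 and 2 had an unadjusted p under 0.05, where all probe sets gave 8.67%, 8.03% and 7.72%, and 2, 2 and 2 did not overlap, where all gave 14.0%, 10.5% and 12.7%. An array of 15lox/1572T was the highest of the 12 for 8 of the 13 probe sets, which include several of 1 gene, and for 7 of the 10 genes, where this held for 31.6% of all probe sets and 28.7% of all genes. Egr1 and 1 probe set of Hspa1b had the largest differences, near 3-fold in 15lox/1572T, and the other 8 genes stayed within 0.60 of each other's group means on the log2 scale except Fos, at up to 0.65 between mutant genotypes.

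**Figure D1:**
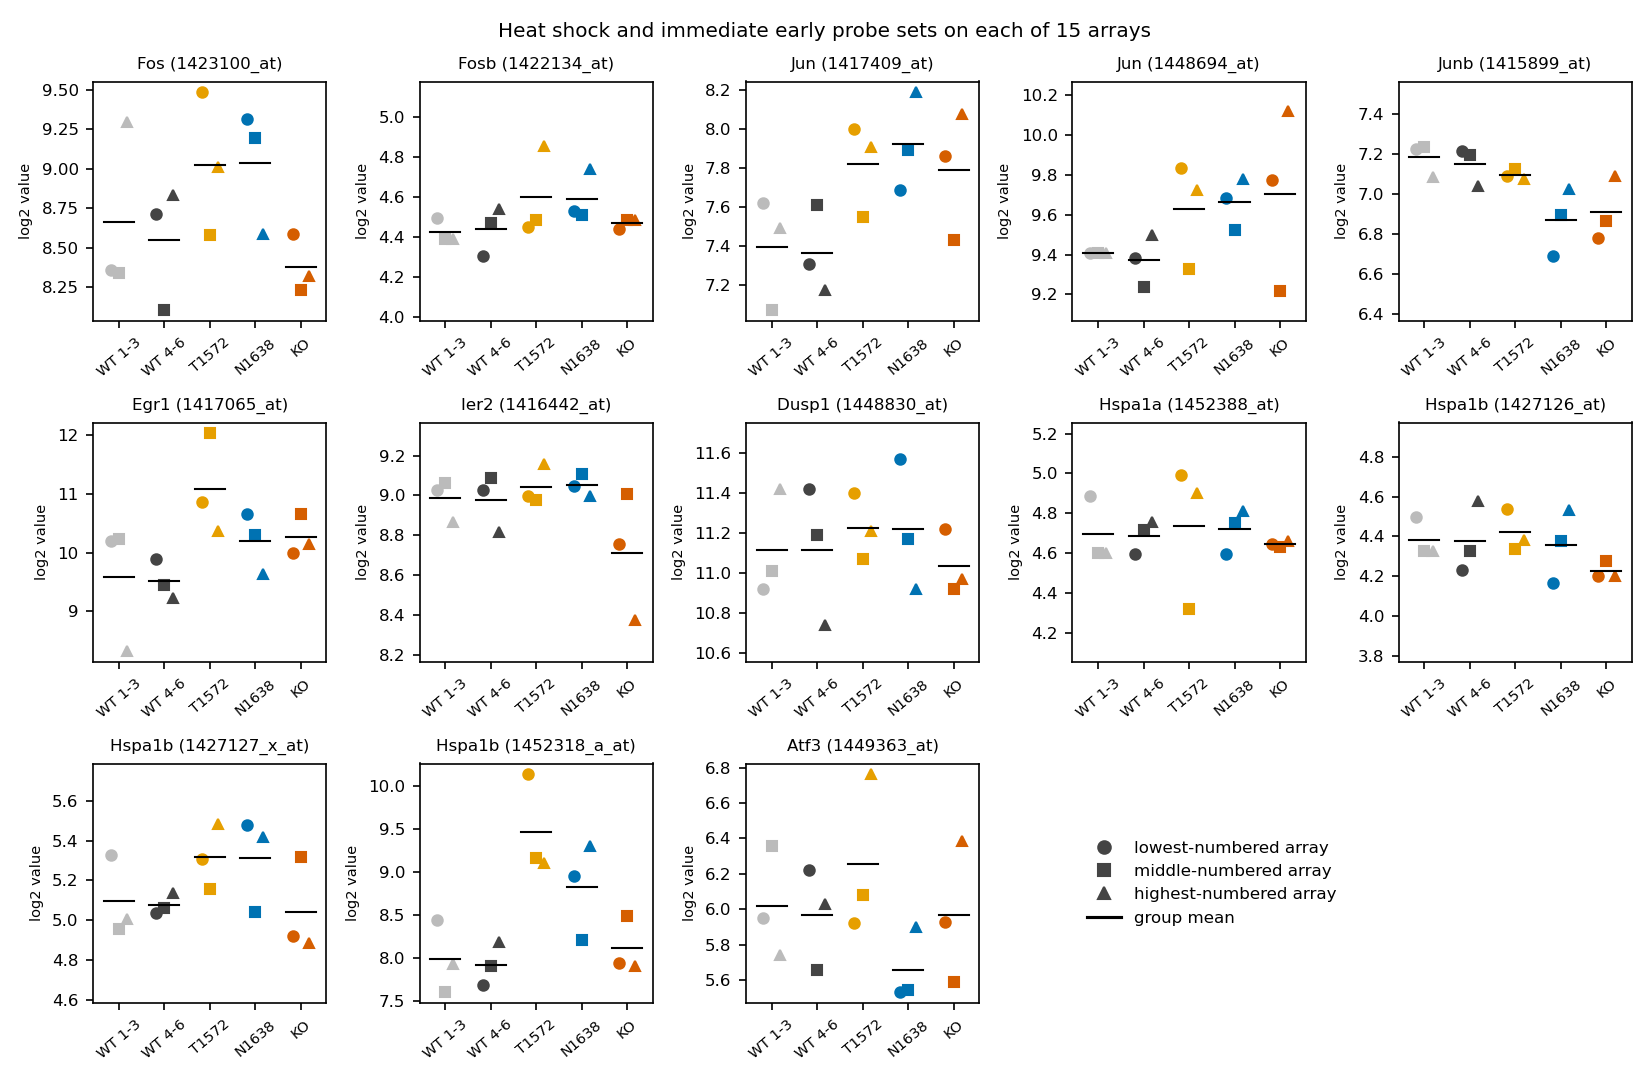
Log2 level (vertical axis) of each of the 13 probe sets on each of 15 arrays, by genotype, with wild-type arrays 1 to 3 in light grey as a column of their own. Marker shapes follow the array's number within its group and horizontal bars are group means (n = 3). Hspa1b probe set 1452318_a_at is above every wild-type array on all 15lox/1572T arrays, and Egr1 reaches 12.03 on 15lox/1572T array 2.

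The AP-1 subunits come first. Fos, which forms AP-1 by pairing with Jun proteins, read 8.71, 8.11 and 8.83 on wild-type arrays 4 to 6 and 8.59, 8.23 and 8.32 in 15lox/15lox. It read 9.31, 9.20 and 8.59 in 15lox/1638N and 9.48, 8.58 and 9.01 in 15lox/1572T. The 15lox/15lox arrays lay inside the wild-type range, and 2 of 3 arrays in each hypomorph group lay above it. Against wild type Fos differed by 0.48 ± 0.26 (SE) in 15lox/1638N (adjusted p = 0.41) and by 0.48 ± 0.26 in 15lox/1572T (adjusted p = 0.79). The groups of 15lox/15lox and 15lox/1638N did not overlap, as for 14.0% of all probe sets, with Fos 1.57-fold lower in 15lox/15lox (log2 difference -0.65, 95% interval -1.24 to -0.07, adjusted p = 0.56). The doubted wild-type arrays 1 to 3 read 8.36, 8.34 and 9.30, so that array 3 was as high as the highest 15lox/1638N array to within 0.02.

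Fosb, a Fos relative, lay near the bottom of the scale, at 4.30 to 4.54 in wild type and 4.44 to 4.49 in 15lox/15lox. Its highest readings were 4.86 on 15lox/1572T array 3 and 4.74 on 15lox/1638N array 3. No difference from wild type exceeded 0.16 (adjusted p of 0.58 to 0.97). Fosb, Hspa1a and Hspa1b probe sets 1427126_at and 1427127_x_at were the 4 of 13 among the lowest 0.33 of all probe sets by mean level, where background makes up more of a signal and differences are compressed.

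Jun, the AP-1 partner that can also pair with itself, was read by 2 probe sets. Probe set 1417409_at read 7.31, 7.61 and 7.17 in wild type, 7.86, 7.43 and 8.08 in 15lox/15lox, 8.0, 7.55 and 7.91 in 15lox/1572T and 7.69, 7.90 and 8.19 in 15lox/1638N. Every 15lox/1638N array was above every wild-type array, while 1 array of each other mutant group fell inside the wild-type range. The differences were 0.56 ± 0.20 in 15lox/1638N (1.47-fold, adjusted p = 0.20), 0.46 ± 0.20 in 15lox/1572T (adjusted p = 0.70) and 0.43 ± 0.20 in 15lox/15lox (adjusted p = 0.50). Probe set 1448694_at read 9.38, 9.24 and 9.50 in wild type, 9.78, 9.22 and 10.12 in 15lox/15lox, 9.83, 9.33 and 9.73 in 15lox/1572T and 9.68, 9.52 and 9.78 in 15lox/1638N. Both probe sets were low on the array numbered 2 of 15lox/15lox and of 15lox/1572T. The second gave smaller differences of 0.33, 0.26 and 0.29 ± 0.21 in 15lox/15lox, 15lox/1572T and 15lox/1638N (adjusted p of 0.53 to 0.86), so the sign was the same in all 6 comparisons with wild type.

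Junb, which can restrain Jun and limits growth of myeloid progenitors, leaned the other way. It read 7.21, 7.19 and 7.04 in wild type, 6.78, 6.86 and 7.09 in 15lox/15lox, 6.69, 6.89 and 7.02 in 15lox/1638N and 7.09, 7.12 and 7.07 in 15lox/1572T. All 15lox/1638N arrays were below all wild-type arrays, by a narrow gap, and all 15lox/1572T arrays were inside the wild-type range. Junb differed by -0.28 ± 0.11 in 15lox/1638N (1.21-fold lower, adjusted p = 0.25), by -0.24 ± 0.11 in 15lox/15lox (adjusted p = 0.51) and by -0.05 ± 0.11 in 15lox/1572T (adjusted p = 0.96). Fitted with all 6 wild-type arrays, which are not independent of each other as described above, the 15lox/1638N difference of -0.30 had an adjusted p of 0.046.

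Egr1, which slows the cycling of blood stem cells, had the largest difference of the 10 genes. It read 9.89, 9.45 and 9.22 in wild type, 9.99, 10.66 and 10.14 in 15lox/15lox, 10.66, 10.30 and 9.63 in 15lox/1638N and 10.87, 12.03 and 10.37 in 15lox/1572T. All 15lox/15lox and all 15lox/1572T arrays were above all wild-type arrays, and 1 array of 15lox/1638N was inside the wild-type range. In 15lox/1572T the mean was 11.09 ± 0.85 (SD, n = 3) against 9.52 ± 0.34 (SD, n = 3), 2.97-fold higher (log2 difference 1.57 ± 0.39, 95% interval 0.71 to 2.43, adjusted p = 0.40). Without 15lox/1572T array 2 the difference was 1.10 (adjusted p = 0.52). The differences were 0.75 ± 0.39 in 15lox/15lox (adjusted p = 0.58) and 0.68 ± 0.39 in 15lox/1638N (adjusted p = 0.43). Wild-type arrays 1 to 3 read 10.19, 10.23 and 8.33, so arrays 1 and 2 were above each of arrays 4 to 6 and array 3 was the lowest of all 15.

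Ier2, a small nuclear protein induced with Fos, read 9.03, 9.09 and 8.82 in wild type, 8.76, 9.01 and 8.37 in 15lox/15lox, 9.0, 8.98 and 9.16 in 15lox/1572T and 9.05, 9.11 and 9.0 in 15lox/1638N. The hypomorph arrays were within 0.10 of the wild-type range, and 2 of 3 arrays of 15lox/15lox were below it. The 15lox/15lox difference was -0.27 ± 0.15 against wild type (adjusted p = 0.60), -0.34 against 15lox/1638N (adjusted p = 0.57) and -0.33 against 15lox/1572T (adjusted p = 0.60). Dusp1, the feedback phosphatase, read 11.42, 11.19 and 10.74 in wild type, 11.22, 10.92 and 10.97 in 15lox/15lox, 11.40, 11.07 and 11.21 in 15lox/1572T and 11.57, 11.17 and 10.92 in 15lox/1638N. All 4 groups overlapped, and no difference from wild type exceeded 0.11 ± 0.20, with 95% intervals between -0.51 and 0.54.

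Atf3, a stress-induced repressor that acts in the integrated stress response, read 6.22, 5.66 and 6.03 in wild type, 5.93, 5.59 and 6.39 in 15lox/15lox, 5.92, 6.08 and 6.76 in 15lox/1572T and 5.53, 5.54 and 5.90 in 15lox/1638N. The highest array was 15lox/1572T array 3, and the 15lox/1638N arrays were all below all 15lox/1572T arrays, as for 12.7% of all probe sets. The difference between these hypomorph groups was -0.60 ± 0.25, or 1.51-fold lower in 15lox/1638N (adjusted p = 0.63). Against wild type Atf3 differed by -0.00 in 15lox/15lox, -0.31 in 15lox/1638N and 0.28 in 15lox/1572T, each ± 0.25 (adjusted p of 0.59 to 1.00).

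By level, 1 probe set of the inducible Hsp70 genes read clearly and 3 were faint. Hspa1b probe set 1452318_a_at read 7.69, 7.91 and 8.18 in wild type, 7.94, 8.49 and 7.91 in 15lox/15lox, 8.96, 8.21 and 9.30 in 15lox/1638N and 10.14, 9.17 and 9.11 in 15lox/1572T. All 15lox/1572T and all 15lox/1638N arrays were above all wild-type arrays 4 to 6, and the 15lox/1572T arrays were above all 15lox/15lox arrays, as for 10.5% of all probe sets. The mean was 9.47 ± 0.58 (SD, n = 3) in 15lox/1572T against 7.93 ± 0.25 (SD, n = 3) in wild type, 2.92-fold higher (log2 difference 1.55 ± 0.32, 95% interval 0.84 to 2.25, adjusted p = 0.27). The difference was 0.90 ± 0.32 in 15lox/1638N (1.86-fold, adjusted p = 0.21) and 0.19 ± 0.32 in 15lox/15lox (adjusted p = 0.91). Between mutant genotypes Hspa1b was 2.56-fold higher in 15lox/1572T than in 15lox/15lox (adjusted p = 0.11), the lowest adjusted p of any of the 78 comparisons of these probe sets. Hspa1b passed in 15lox/1572T against wild type when all 6 wild-type arrays were used (adjusted p = 0.028) or arrays were weighted (difference 1.95, adjusted p = 0.029). The 6 wild-type arrays are not independent of each other. Against wild type these settings called 283 and 92 of all 45101 probe sets, where the main fit called 13. In that comparison Hspa1b did not pass with Xist type as a covariate (0.35). Nor did it pass without any 1 array, with adjusted p = 0.60 without 15lox/1572T array 1 and 0.78 without wild-type array 5. Against 15lox/15lox it passed with all 6 wild-type arrays (0.0495), with array weights (0.038) and with Xist type as a covariate (0.015). Wild-type array 1 read 8.45, inside the 15lox/1638N range.

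The other Hsp70 probe sets did not show that difference. Hspa1a probe set 1452388_at stayed between 4.32 and 4.99 on all 15 arrays, with both ends in 15lox/1572T (4.99, 4.32 and 4.90), and differed from wild type by at most 0.05 ± 0.15. Hspa1b probe set 1427126_at read 4.16 to 4.58 and differed by at most -0.15 ± 0.12. Hspa1b probe set 1427127_x_at read 4.89 to 5.48, was above wild type on all 15lox/1572T arrays by 0.24 ± 0.15 on average (adjusted p = 0.81), and by 0.23 in 15lox/1638N with overlap (adjusted p = 0.48). The mean of the 3 Hspa1b probe sets differed by 0.61 in 15lox/1572T (adjusted p = 0.30), in place of 1.55. The files do not say which copy each probe set reads, and near-identical copies such as Hspa1a and Hspa1b may share probes, so a level is uncertain between them.

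**Figure D2:**
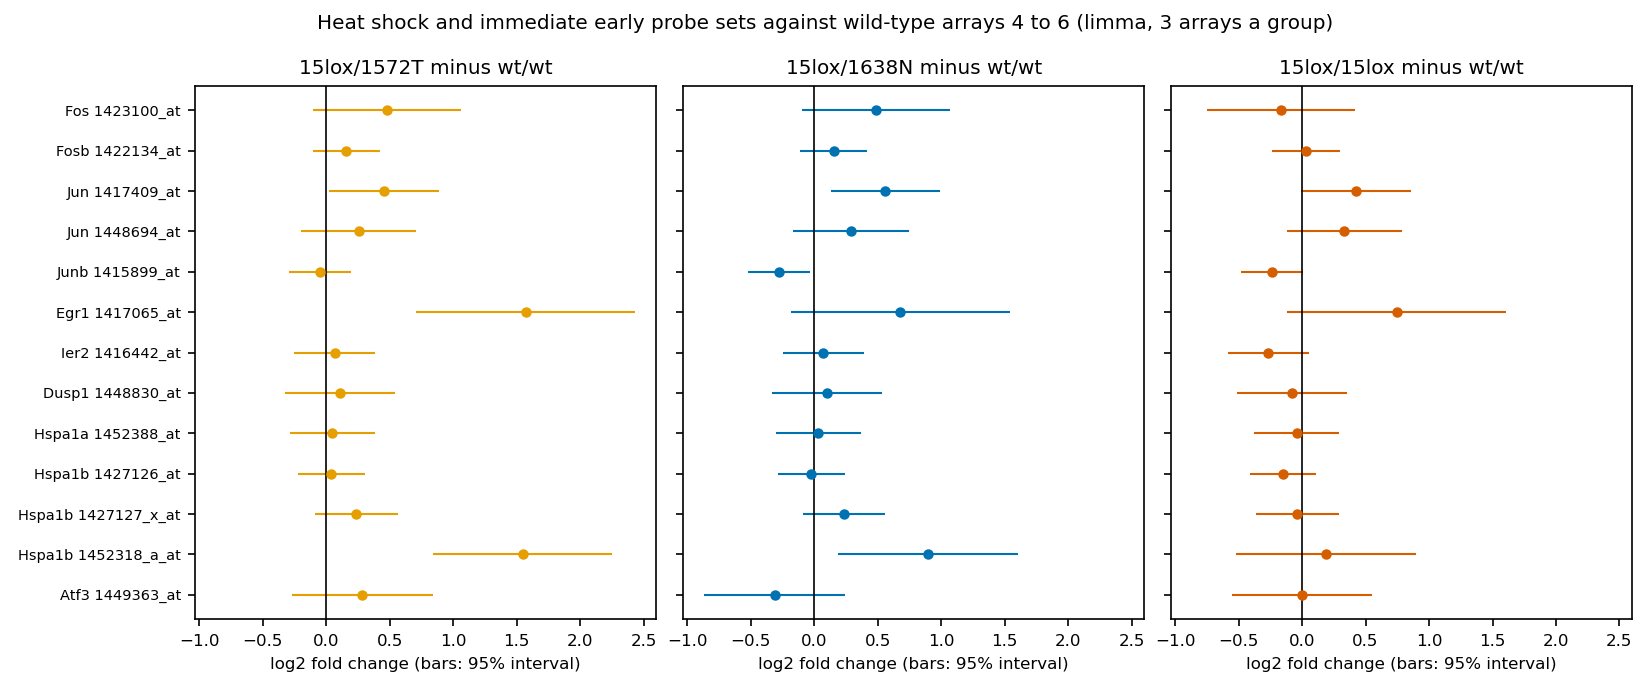
Log2 difference from wild-type arrays 4 to 6 (horizontal axis, bars 95% intervals of the limma fit, n = 3 against 3) for each of the 13 probe sets in each mutant genotype. The intervals of Egr1 and Hspa1b probe set 1452318_a_at in 15lox/1572T start at 0.71 and 0.84, while no probe set passed the adjusted threshold.

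Array by array, the 10 genes (1 probe set each, the one with the highest mean) were compared with wild type. Their mean difference from the wild-type mean was 0.04, 0.04 and 0.08 on the 15lox/15lox arrays, 0.29, 0.15 and 0.20 on the 15lox/1638N arrays and 0.55, 0.35 and 0.45 on the 15lox/1572T arrays. Without Egr1 and Hspa1b, which were left out after their values were seen, the remaining 8 gave -0.02, -0.16 and 0.02, then 0.09, 0.05 and 0.06, then 0.24, -0.04 and 0.30. Wild-type arrays 4 to 6 gave 0.08, -0.08 and -0.00 on the same 8, so 15lox/1572T arrays 1 and 3 and, narrowly, 15lox/1638N array 1 were above that range, 15lox/15lox array 2 was below it and 15lox/1572T array 2 was inside it. Genes above the highest wild-type array numbered 2, 2 and 3 of 10 on the 15lox/15lox arrays, where 19.8%, 23.1% and 25.9% of all genes were. They numbered 5, 5 and 4 on the 15lox/1638N arrays (27.3%, 25.5% and 23.6% of all genes) and 5, 2 and 8 on the 15lox/1572T arrays (23.6%, 15.8% and 33.8%). Genes below the lowest numbered 2, 3 and 1, then 2, 2 and 1, then 0, 1 and 0, where 27.9% to 42.2% of all genes were below it on the 9 arrays.

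The arrays of 15lox/1572T differed in which genes were high. Array 1 held the highest Fos (9.48) and Hspa1b (10.14) of the 12 arrays. Array 2 held the highest Egr1 (12.03) and the lowest Hspa1a (4.32). Array 3 held the highest Atf3 (6.76) and Fosb (4.86). On array 3, 9 of 10 genes were above the wild-type mean. The number above the mean of their own group ran from 2 of 10 (15lox/1572T array 2) to 7 of 10 (wild-type array 4), and the mean deviation from the own group ran from -0.10 (15lox/1572T array 2) to 0.10 (15lox/1572T array 1). The same groups differed in the mean over 5 mast cell and basophil markers, of which 0 passed in any comparison. This mean difference from wild type was 0.35 to 0.72 on the 15lox/1572T arrays and -0.39 to 0.27 on wild-type arrays 4 to 6. It was -0.41 to 0.03 in 15lox/15lox and -0.73 to -0.11 in 15lox/1638N. In 15lox/1572T 4 of the 5 were positive. The other, Gzmb, named after its values were seen, read 10.96, 11.65 and 11.27 against 12.11, 11.95 and 11.02 in wild type. The 5 megakaryocyte genes, none of which passed, had means of 0.13 to 0.37 on the 15lox/1572T arrays, -0.29 to 0.17 in wild type, -0.24 to 0.16 in 15lox/15lox and -0.54 to -0.21 in 15lox/1638N. The 4 erythroid genes had 0.12 to 0.36, -0.14 to 0.23, -0.28 to 0.20 and -0.33 to -0.14 in the same order. The part of these cells in the levels of Egr1 and Hspa1b was not tested, and in bulk samples more cells of a type and more RNA per cell cannot be told apart.

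**Figure D3:**
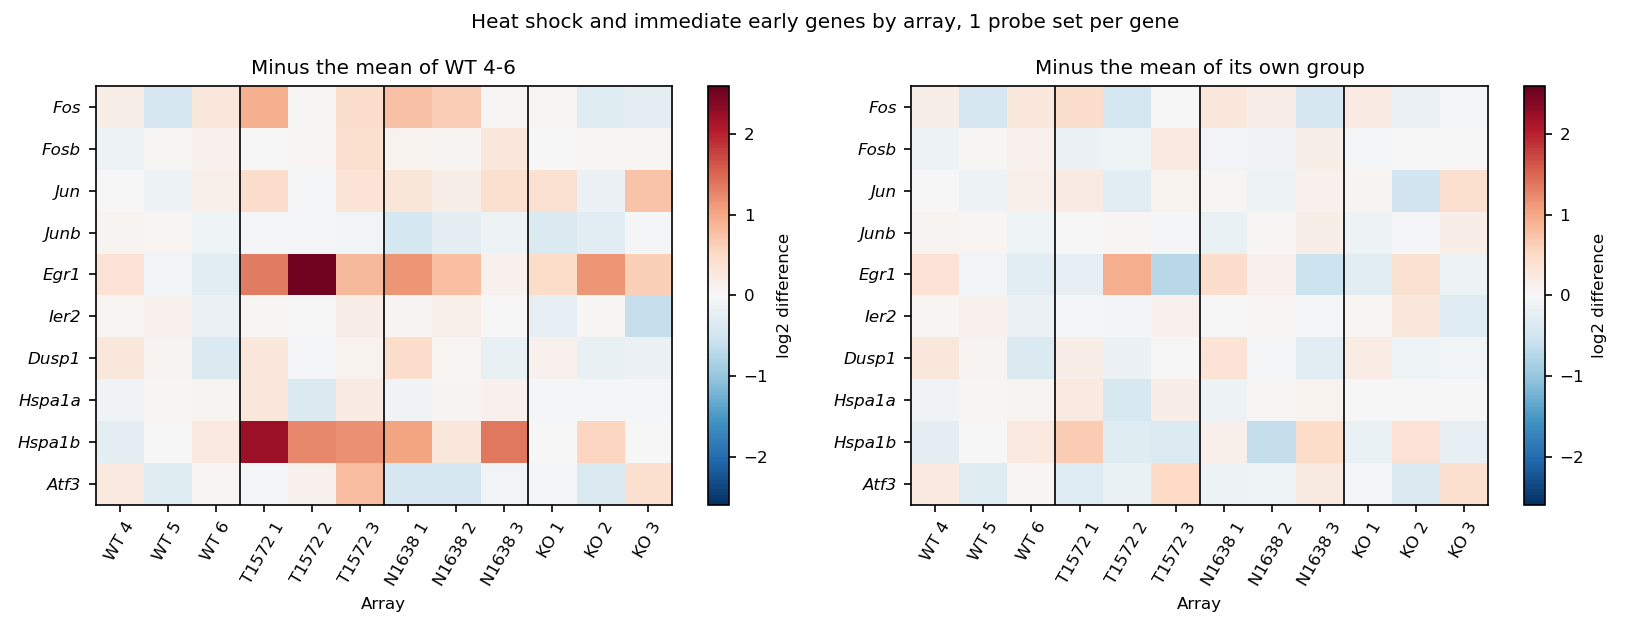
Log2 difference from the mean of wild-type arrays 4 to 6 (left) and from the own group's mean (right) for the 10 genes (rows) on each array (columns); red is higher, blue lower. On the left Egr1 on 15lox/1572T array 2 (2.51) and Hspa1b on 15lox/1572T array 1 (2.21, in 1 probe set) are the strongest cells, and on the right no column is of 1 colour.

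Deviations from the group means were compared between genes to describe how arrays varied within a genotype. Over the 12 arrays the 45 pairs of genes had a median Pearson r of 0.04, with 24 pairs positive and 21 negative, from -0.85 (Egr1 and Hspa1a) to 0.62 (Jun and Atf3). Fos and Dusp1 had r = 0.44, Fos and Jun 0.38, Fos and Egr1 -0.13, and Fos and Junb -0.54. Hspa1b had r = 0.39 with Hspa1a and -0.19 with Egr1. The points of a group share its mean, which leaves 8 free values, and these correlations are descriptions. By the same measure, over 4470 genes that varied within groups, the genes most like Fos were Nr1d2 (r = 0.90), Trio (0.83), Nfic (0.83), Sfmbt1 (0.82) and Slc25a44 (0.81). Those most like Hspa1b were Gstm2 (0.89), Aldh1l1 (0.88), Ppp1r15a (0.87), Catsperd (0.87) and Pla2g12a (0.85), among which Ppp1r15a, a phosphatase subunit of the stress response, was on a list of related genes.

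The share of a probe set's sum of squares that lay between genotypes puts both sources of spread on 1 scale. It was 73.3% for Hspa1b probe set 1452318_a_at, 60.1% for Egr1, 57.1% for Junb, 49.6% and 24.3% for the Jun probe sets, 48.0% for Fos, 45.7% for Ier2 and 35.4% for Atf3. Hspa1b probe sets 1427127_x_at and 1427126_at had 40.7% and 28.4%, and Fosb had 27.0%. The share was 11.7% for Dusp1 and 4.49% for Hspa1a, whose spread was therefore nearly all within genotypes. The median was 40.7% over the 13 and 31.3% over all probe sets. Spread within a genotype was also wide: the SD within groups was 0.56 for Egr1, above that of 97.9% of all probe sets, 0.45 for Hspa1b probe set 1452318_a_at (95%), 0.37 for Fos (90.0%) and 0.35 for Atf3 (88.2%). Its median was 0.26 over the 13 probe sets and 0.17 over all. The F test over genotypes gave adjusted p = 0.098 for Hspa1b probe set 1452318_a_at and 0.29 for Egr1.

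**Figure D4:**
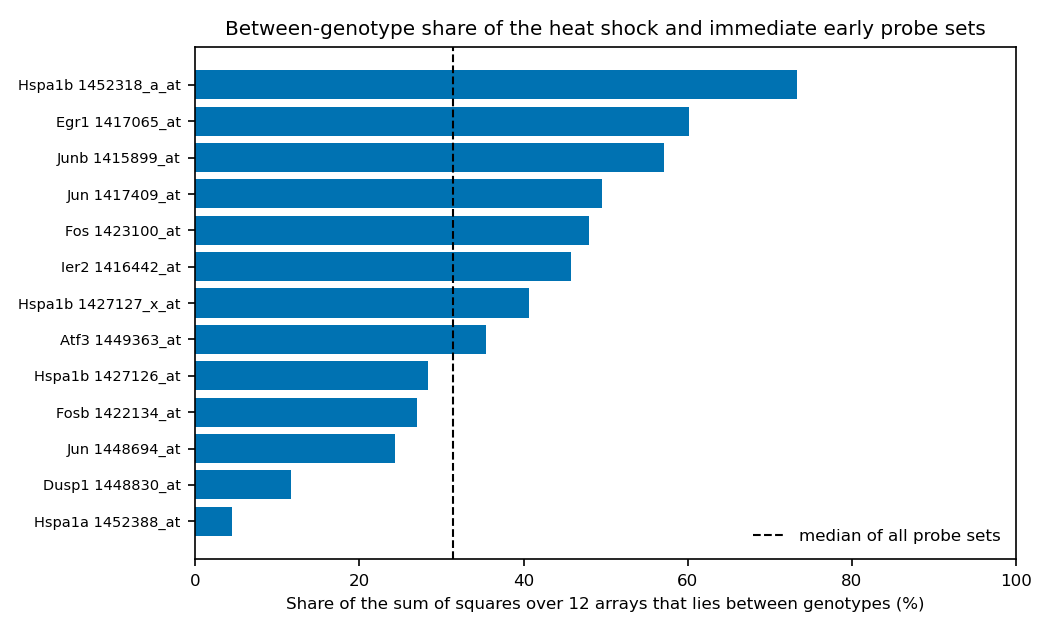
Share of the sum of squares between the 4 genotypes (%, 12 arrays) for each of the 13 probe sets, with the median of all 45101 probe sets (31.3%) as a line. Hspa1b probe set 1452318_a_at is at 73.3% and Hspa1a at 4.49%.

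For Hspa1b and Egr1 the order of the genotypes was not that of Axin2. Axin2 was highest in 15lox/15lox, then 15lox/1638N, then 15lox/1572T. Hspa1b had its highest mean in 15lox/1572T (9.47 ± 0.58), then 15lox/1638N (8.82 ± 0.56), then 15lox/15lox (8.11 ± 0.33), each n = 3 with SD. Neighbours in that order overlapped, and only the ends did not. Egr1 had means of 11.09, 10.20 and 10.27 in the same groups, with overlap between each pair of mutant genotypes. Jun probe set 1448694_at did have the order of Axin2, with means of 9.70, 9.66 and 9.63 in 15lox/15lox, 15lox/1638N and 15lox/1572T, all overlapping. The other Jun probe set, 1417409_at, did not, with means of 7.79, 7.92 and 7.82 in the same groups, so 15lox/15lox was the lowest of them.

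**Figure D5:**
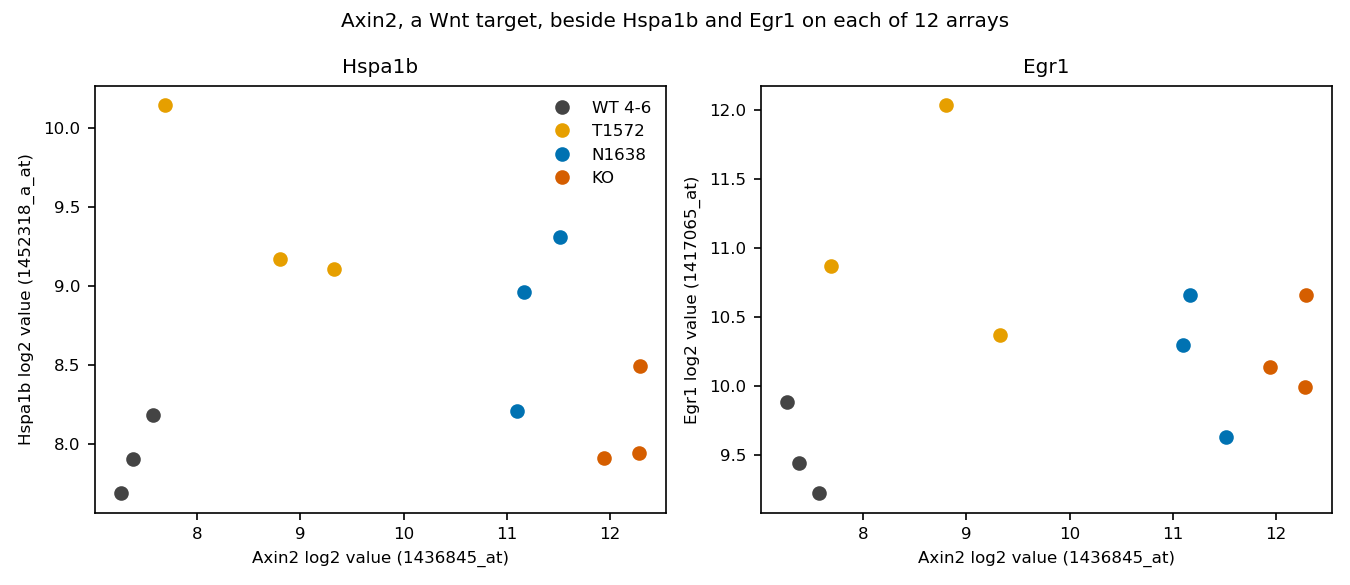
Log2 level of Axin2 (horizontal axis) against that of Hspa1b probe set 1452318_a_at (left) and Egr1 (right) on each of 12 arrays, coloured by genotype. Axin2 is at 11.94 to 12.29 in 15lox/15lox, where Hspa1b (7.91 to 8.49) is near wild type.

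Related genes on lists written from background knowledge showed few changes. Of 28 other immediate early genes, 1 rose and 2 fell in 15lox/15lox, 1 rose and 2 fell in 15lox/1638N, and 0 passed in 15lox/1572T, where 2.11%, 2.04% and 0.0495% of all genes were called. Their median differences were -0.13, -0.15 and -0.03, against -0.05, -0.03 and -0.03 over all genes. Nr4a3, an orphan nuclear receptor induced by growth signals, read 7.95, 8.84 and 7.47 in 15lox/15lox against 5.62, 5.60 and 5.5 in wild type. All 15lox/15lox arrays were above every other array of the 12, and Nr4a3 rose 5.72-fold (limma, adjusted p = 0.0025). The mean of its 3 probe sets rose by 0.73 (adjusted p = 0.014). It was also 4.90-fold higher than in 15lox/1572T (adjusted p = 0.0062), a call lost with the array number as a replicate block (adjusted p = 0.082) and with the arrays of these groups alone (0.058).

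Klf2, a quiescence factor of lymphocytes, read 7.73, 8.46 and 7.56 in wild type, 6.48, 6.07 and 6.57 in 15lox/15lox, 6.08, 5.97 and 6.64 in 15lox/1638N and 6.29, 6.64 and 7.18 in 15lox/1572T. All 3 mutant groups were below all wild-type arrays. Klf2 fell 2.92-fold in 15lox/15lox (adjusted p = 0.020) and 3.22-fold in 15lox/1638N (adjusted p = 0.018), and differed by -1.21 in 15lox/1572T (adjusted p = 0.33). Csrnp1, a nuclear protein first named for its induction by Axin1, fell by 0.60 and 0.62 on the log2 scale (adjusted p = 0.019 and 0.022). Nr4a2, a relative of Nr4a3, rose by 0.77 in 15lox/1638N (adjusted p = 0.020). These calls changed when single arrays were left out. Klf2 in 15lox/15lox missed the threshold in the 4 fits that dropped wild-type array 4, wild-type array 5 or 15lox/15lox array 1 or 2 (adjusted p of 0.055 to 0.098), as it did in 15lox/1638N when wild-type array 4 or 5 or its own array 1 or 2 was dropped (0.061 to 0.082). Csrnp1 missed it without any one array of wild type or 15lox/1638N in 15lox/1638N (0.052 to 0.096), and without any one of wild type or 15lox/15lox array 2 or 3 in 15lox/15lox (0.065 to 0.091). Nr4a2 missed it when any wild-type array or mutant array 1 or 2 was dropped (0.051 to 0.093), and when its probe sets were averaged (0.17). Nr4a3 passed without any 1 of the 12 arrays. With Xist type as a covariate Klf2 and Csrnp1 in 15lox/15lox also missed it (0.12 and 0.11), and Nr4a3 did not (0.020).

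The other stress lists held few called genes. Of 18 other measured heat shock genes 0 passed in any genotype, with medians of 0.07, 0.14 and 0.06 in 15lox/15lox, 15lox/1638N and 15lox/1572T, and 14, 15 and 13 were positive. Over all 18194 genes the medians were -0.05, -0.03 and -0.03, and 6807, 7789 and 7801 were positive, so this list leaned upward in each mutant genotype. The mean difference of the 18 from wild type was 0.11 to 0.21 on the 15lox/1638N arrays, above the -0.06 to 0.07 of wild-type arrays 4 to 6, and -0.01 to 0.13 on the 15lox/1572T arrays. In 15lox/1638N 3 passed with all 6 wild-type arrays as control and 2 with array weights. These settings called 3912 and 3443 of all 45101 probe sets in 15lox/1638N, where the main fit called 623. Of 16 genes of the integrated stress and unfolded protein responses 0 passed, with medians of -0.11, -0.13 and -0.06. Of 9 p53 response genes, Pmaip1, which encodes the death-promoting protein Noxa, rose by 0.70 in both 15lox/15lox and 15lox/1638N (adjusted p = 0.040 and 0.045), and missed the threshold in 10 and 9 of the 12 fits that left out 1 array, among them each wild-type array, and with Xist type as a covariate (0.22 and 0.085). The list as a whole had medians of -0.06, -0.36 and -0.01 in 15lox/15lox, 15lox/1638N and 15lox/1572T. In 15lox/1638N 1 of its 9 genes was positive, and their mean was -0.64 to -0.11 on those arrays against -0.14 to 0.12 in wild type. Of 15 upstream regulators and feedback phosphatases, Dusp4, a nuclear MAP kinase phosphatase, rose 2.36-fold in 15lox/15lox (adjusted p = 0.028) and 2.63-fold in 15lox/1638N (adjusted p = 0.020). Dusp4 missed it in both without wild-type array 4 or 6 or array 1 or 2 of the mutant group (0.085 to 0.11 and 0.069 to 0.087), and with Xist type as a covariate in 15lox/15lox (0.14), while Dusp1 differed by -0.08 and 0.10 in the same groups.

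Markers of cell types that a cultured LSK sample could hold differed between the same groups. Of 8 monocyte and macrophage genes, Cd14, Ccr2 and F13a1 rose in 15lox/15lox, Cd14 and Ccr2 in 15lox/1638N and Cd14 in 15lox/1572T, and the mean over the 8 was 0.18 to 1.02 above wild type on the mutant arrays against -0.03 to 0.05 on wild-type arrays 4 to 6. The medians were 0.09, -0.03 and -0.01 in 15lox/15lox, 15lox/1638N and 15lox/1572T, with 4 of 8 positive in each. Itgam and Csf1r, named after their values were seen, did not pass: Itgam differed by -0.08, -0.35 and -0.30 and Csf1r by -0.35, -0.88 and 0.07. Cd14, a lipopolysaccharide co-receptor, rose 5.77-fold in 15lox/1572T (adjusted p = 0.0012). Of 5 T cell genes Cd3g fell in all 3 mutant genotypes, and of 5 B cell genes Ebf1 fell in 15lox/15lox and 15lox/1638N. None of 7 neutrophil, 4 erythroid and 5 megakaryocyte genes passed. Immediate early genes are expressed in monocytes too, and the part of such cells in the levels of the 10 genes was not tested.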

How the data were processed

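Each of 15 samples was hybridised to 1 array. The table deposited by the authors holds log2 values per probe set, a unit inferred from their range, as no header gives it. Per the submitters' processing notes the authors used RMA and mm9, with no role or version given; its settings were not given in the sources used here. RMA usually brings arrays to one distribution and compresses differences of dim probe sets. No further normalization or filter was applied. All 45101 probe sets (34958 with 1 gene symbol, 932 with several, 9211 not listed) entered a limma fit (version 3.58.1, R 4.3.3, lmFit and eBayes) on 12 arrays, wild-type arrays 4 to 6 and the 9 mutant arrays, with 8 residual degrees of freedom. Tests were two-sided, with Benjamini-Hochberg adjustment over all probe sets in each comparison, at 0.05. Errors are SE for differences and SD for means. Gene counts use 1 probe set per gene, that with the highest mean (18194 genes), with its p from the same fit. The method was tested on simulated data.

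The 10 genes and the lists were chosen with earlier results of these data known. Named were the 10 genes, Axin2, Lef1 and Nkd1, up to 4 called genes of each other list by lowest p, and the 5 genes most correlated with Fos and with Hspa1b (SD of deviations over 0.2). The main fit paired no arrays by replicate number, and the replicate block alternatives used the number in all groups they held. Deviations of same-numbered arrays from their group means had r of 0.14 to 0.21 between 15lox/15lox and 15lox/1572T. The r was 0.08 to 0.38 between 15lox/15lox and 15lox/1638N, and -0.07 to 0.31 between 15lox/1638N and 15lox/1572T. Alternatives covered controls, normalization, filter, eBayes options, array weights, Xist type, probe set choice, a replicate block and each array left out. Sequences are from RefSeq (GRCm38.p6).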

Additional observations from a re-analysis of the deposited data

How the results depend on the processing

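Counts of called probe sets among the 13 were 0 in each of the 6 comparisons and the F test, and 150 of 160 alternative counts were 0 too. The other 10 were 1: with all 6 wild-type arrays as control and with array weights, 1 each in 15lox/1638N and 15lox/1572T against wild type, 15lox/15lox against 15lox/1572T and the F test, and with Xist type as a covariate, 1 each in the last 2 of these. Over all 45101 probe sets the settings in that order called 3912 and 3443 in 15lox/1638N against wild type, where the main fit called 623. They called 283 and 92 in 15lox/1572T against wild type (main fit 13). In 15lox/15lox against 15lox/1572T they called 697 and 550, and 367 with Xist type (main fit 451). The F test called 2692 and 1780, and 357 with Xist type (main fit 620). Leaving out any 1 array gave 0 to 0 in every comparison. Of 575 alternative log2 differences, over these and the related called genes, 0 changed sign, 7 newly passed the threshold and 63, all of related genes, no longer passed it. The Hspa1b difference in 15lox/1572T ran from 0.61 (mean of its probe sets) to 1.95 (array weights), and was 1.21 without 15lox/1572T array 1 (adjusted p = 0.60). Same-numbered arrays of different groups had correlations of -0.07 to 0.38 in their deviations, over 9 pairs, and differently numbered arrays -0.35 to 0.20, over 18, with 8 of 9 positive and 13 of 18 negative. A group's deviations sum to 0, so positive same-numbered values pull the others negative, and the count of 13 is not separate support for pairing. Of the 9 comparisons of an array with another group's 3 arrays, 7 were highest at its own number, a hint of pairing from the data and not the design. With the number as a replicate block, 0 of the 13 passed in any comparison. The wild-type arrays of the main fit share their numbers with no mutant array. In the block fit against wild type the doubted wild-type arrays 1 to 3 were therefore the only control. That fit cannot show how pairing would change the comparison with the main control. In it Nr4a3 in 15lox/15lox had an adjusted p of 0.034, and Nr4a2 in 15lox/1638N (0.72) missed the threshold (adjusted p = 0.082). The counts of other immediate early genes ran over 23 alternatives from 0 to 3 lower in 15lox/15lox and from 0 to 8 lower in 15lox/1638N, and 1 rose in 15lox/15lox in each. The count of 8 came with all 6 wild-type arrays as control, where 3912 of 45101 probe sets were called in 15lox/1638N. Leaving out the lowest 0.33 of probe sets by mean level kept 9 of the 13 probe sets. The cause of these changes was not tested. The F test was not run on the arrays of 2 groups only, where it equals the comparison itself. With 3 arrays a group, 0 calls among these genes do not show that they were equal, as the 95% intervals above give.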
